A study of Mus musculus with 4 samples.

Results

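The Hippo pathway genes described here are 10 genes taken by their symbols: the effectors Yap1 and Wwtr1, the kinases Lats1, Lats2, Stk3 and Stk4, the adaptor Sav1, and the scaffolds Nf2, Amotl1 and Amotl2. All 10 were found among the 20714 gene symbols listed in both assays, and each was listed once. Levels were measured in mouse blastocysts by RNA-seq, which gives the mRNA level of a gene, and by Ribo-seq, which gives the level of ribosome-protected fragments (RPF). There were 2 replicate libraries for each assay and 4 libraries in total. The embryos of all 4 libraries were wild type, and the embryos themselves were untreated. They came from 4-week-old C57BL/6J females mated with PWK/PhJ males (the strain label of the samples gives C57BL/6N x PWK). The females had been injected with the hormones PMSG and hCG to induce ovulation. The embryos were collected with 8 cells and grown to blastocysts in KSOM medium before the zona pellucida was taken off with acid.

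The Hippo pathway is a kinase chain. STK3 and STK4, held by the adaptor SAV1, activate LATS1 and LATS2, and the LATS kinases phosphorylate YAP1 and WWTR1 (also called TAZ), which then stay in the cytoplasm or are degraded. Unphosphorylated YAP1 and WWTR1 enter the nucleus and bind TEAD factors. In the mouse blastocyst, the pathway is known for separating the first lineages: it is off in the polar outer cells, where nuclear YAP1 and TEAD4 turn on Cdx2 and Gata3 in the trophectoderm, and it is on in the inner cells, where NF2 and angiomotin proteins activate LATS and Sox2 can be expressed. Both lineages were present in these libraries, since 8 of 8 trophectoderm markers and 8 of 8 epiblast markers were above 0 FPKM in all 4. The RNA-seq libraries stood apart in these markers. All 8 epiblast markers were lower in replicate 2, with a summed mRNA level of 166 FPKM in replicate 1 and 61.1 FPKM in replicate 2, against 910 and 1108 FPKM in RPF. Pou5f1 was at 70.1 and 28.6 FPKM in mRNA, and Tdgf1 at 22.2 and 2.12 FPKM. Of the trophectoderm markers, Eomes, Elf5 and Krt7 were higher in replicate 2 and the other 5 were lower, and their summed mRNA level was 3051 and 2837 FPKM. Of 8 primitive endoderm markers, 4 were above 0 FPKM in all 4 libraries. The levels of all 8 summed to 162 and 121 FPKM in mRNA and to 650 and 609 FPKM in RPF. Most of each sum came from Dab2, at 148 and 110 FPKM in mRNA and at 476 and 455 FPKM in RPF. Gata4, Sox17, Sox7 and Foxa2 were each at 0.240 FPKM or less in both RNA-seq libraries. The sample labels do not say whether both assays used the same embryos. Cell make-up may therefore differ between the assays as well as between replicates. Its part in the results below was not tested. Of 8 cumulus and granulosa cell markers, 7 were listed at 0 in all 4 libraries, and of 8 oocyte markers, 6 were. Whole embryos were sequenced, so fewer cells of a type and less RNA per cell cannot be told apart.

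FPKM scales fragments by the length of the feature and by the mapped fragments of the library, so levels of different genes are compared per length. Low values fell on steps, and these steps implied 5458619 and 5172063 fragments in the RNA-seq replicates against only 533741 and 484294 in the Ribo-seq replicates. For a coding sequence of 1000 bases, 3 footprints were worth 7.03 and 7.75 FPKM in Ribo-seq. The footprints behind each RPF value are therefore given below as implied counts, and their intervals and floors cover counting error only. Between replicates, the Spearman correlation across all genes, which are not independent of each other, reached 0.940 in mRNA and 0.898 in RPF.

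Among the effectors, Yap1 was high in RPF for its mRNA level, whereas Wwtr1 was near the median gene. Yap1, the founding effector of the pathway, was low in mRNA, at 2.16 and 3.58 FPKM in replicates 1 and 2, and high in RPF, at 67.6 and 44.0 FPKM. Both RPF values were far above both mRNA values, although the median gene was also higher in RPF than in mRNA. The Yap1 mRNA ranked above 40.4% and 48.3% of the genes with any mRNA, whereas its RPF level ranked above 76.6% and 68.8% of the genes with any RPF. The RPF values rested on about 46 and 27 footprints. Wwtr1, its paralogue, which encodes TAZ, was at 6.20 and 6.59 FPKM in mRNA and at 22.6 and 19.6 FPKM in RPF, with 14 and 11 footprints. Its rank stayed within a narrow range, from above 52.6% to above 60.6% of the genes in each library.

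RPF and mRNA levels were compared with limma on log2(FPKM+1), with each library centred on its median gene, for the 8327 genes that averaged 1 FPKM or more in each assay. A gene was called at an adjusted p (Benjamini-Hochberg, over all genes tested) under 0.05 if its log2 difference was also 1 or more in size. Across all genes tested, 10.3% were called higher in RPF and 8.60% were called lower. Of the 10 Hippo genes, 6 passed the filter on low values. Yap1 was the 1 called higher, and 0 of the 6 were called lower. At an unadjusted p under 0.05 in limma, 1 of them, Nf2, was lower in RPF, beside 1616 of all 8327 genes tested. Yap1 had a log2 difference of 2.37 (SE 0.366, adjusted p = 0.0123), whereas Wwtr1 had one of 0.08 (SE 0.302, adjusted p = 0.870). Without replicate 1 of RNA-seq, the library with the lower Yap1 mRNA and the higher epiblast marker levels, the difference of Yap1 was 2.11 and it was no longer called (adjusted p = 0.0660). Before centring, the library medians were on average 1.502 higher in RPF than in mRNA on the log2 scale. Except where marked as before centring, every difference given here is relative to that shift. The median difference over all genes tested was then -0.24. By marker list, the median difference was 1.91 for the 3 epiblast markers tested and 1.21 for the 3 primitive endoderm markers tested. It was 0.50 for the 8 trophectoderm markers. The other epiblast and primitive endoderm markers averaged under 1 FPKM in mRNA, so these medians leave them out. Their log2 differences before centring were 4.38 in Sox2, 2.93 in Fgf4, 2.82 in Esrrb, 2.31 in Klf4 and 1.47 in Prdm14. They were 4.82 in Sox17, 4.16 in Gata4, 3.13 in Pdgfra, 0.69 in Foxa2 and 0.59 in Sox7. Of these, only Prdm14, Foxa2 and Sox7 lay under the shift of 1.502 between the library medians. Whether cell make-up differed between the assays, and its part in the difference of Yap1, was not tested.

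The ratio of the mean RPF level to the mean mRNA level, in FPKM, shows the same values on a linear scale. For Yap1 it was 19.5, with a 95% interval of 15.5 to 24.8 from the footprint counts alone, and it exceeded the ratio of 97.4% of the 8746 genes whose mRNA averaged 1 FPKM or more. Wwtr1 had a ratio of 3.30, with an interval of 2.15 to 4.89. The median ratio of those genes was 2.67, which lay inside the interval of Wwtr1 and below that of Yap1. Exact copies of each 28-base window of the coding sequences were counted on the mm9 assembly. For Yap1, Wwtr1, Lats1 and Lats2, 0% of the windows occurred at more than 1 place in the genome. The mapping of the Ribo-seq reads allowed mismatches, which this check did not count. Base composition was close to equal in the pair, with a GC content of 58.21% in the coding sequence of Yap1 and 58.20% in that of Wwtr1. The part of mapping or base composition in the difference of Yap1 was not tested.

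**Figure D1:**
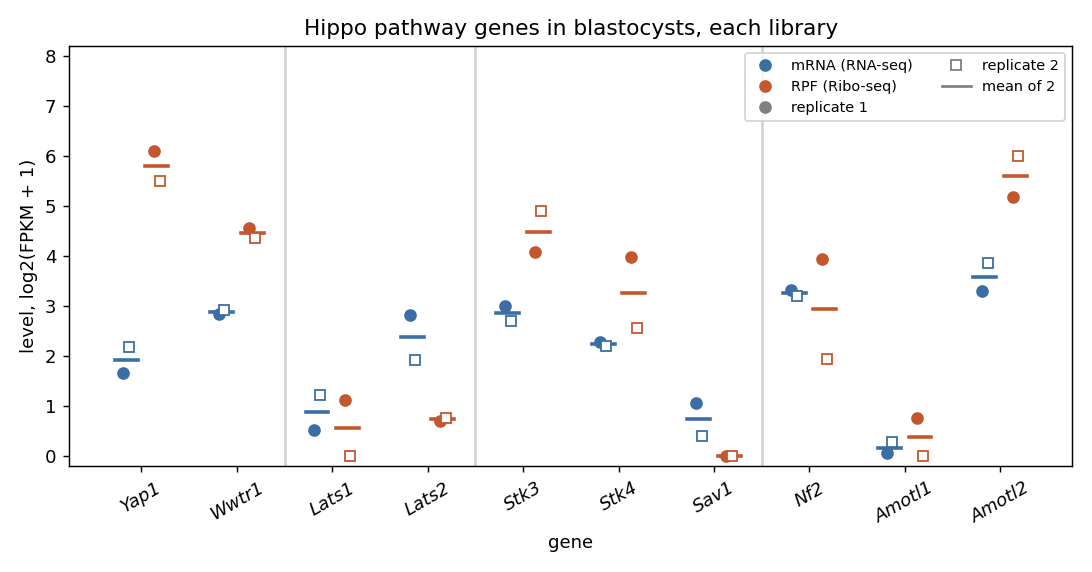
Levels of the 10 Hippo genes, by role, as log2(FPKM+1) in each library, with mRNA in blue and RPF in orange. Filled circles are replicate 1, open squares are replicate 2, and bars are the mean of 2. Yap1 has the highest mean RPF level, whereas Lats1, Lats2, Sav1 and Amotl1 have the lowest RPF means.

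Lats1 and Lats2 encode the kinases that phosphorylate YAP1 and WWTR1. Lats2 stood at 6.05 and 2.82 FPKM in mRNA, from about 165 and 73 fragments, and at 0.638 and 0.704 FPKM in RPF, from 1 footprint in each library. Both RPF values lay below both mRNA values, and under the floor of 3 footprints, which was 1.92 and 2.12 FPKM for its coding sequence of 3129 bases. Its ratio of RPF to mRNA was 0.151, with an interval of 0.0183 to 0.547 from the footprint counts alone. Lats1 was at 0.448 and 1.33 FPKM in mRNA and at 1.17 and 0 FPKM in RPF, from 2 and 0 footprints, so its RPF level was not detectable above the floor in either library. Its ratio of 0.658 had an interval of 0.0837 to 2.496.

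Lats2 was kept out of the fit by its RPF level alone, whereas Lats1, Amotl1 and Sav1 averaged under 1 FPKM in mRNA as well. A gene kept out for a low RPF level could not be called lower, and one let in only through its mRNA level had to differ, so the levels of Lats2 are given as a description with no test.

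The summed levels set the effectors against their kinases within each library. Yap1 and Wwtr1 together had 8.36 and 10.2 FPKM in mRNA, against 6.495 and 4.15 FPKM for Lats1 and Lats2. In RPF, the effectors had 90.3 and 63.6 FPKM and the Lats kinases 1.81 and 0.704 FPKM. These sums were chosen after the values were seen and carry no test, and those of the Lats kinases in RPF rest on 3 and 1 footprints, too few to give a ratio.

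**Figure D2:**
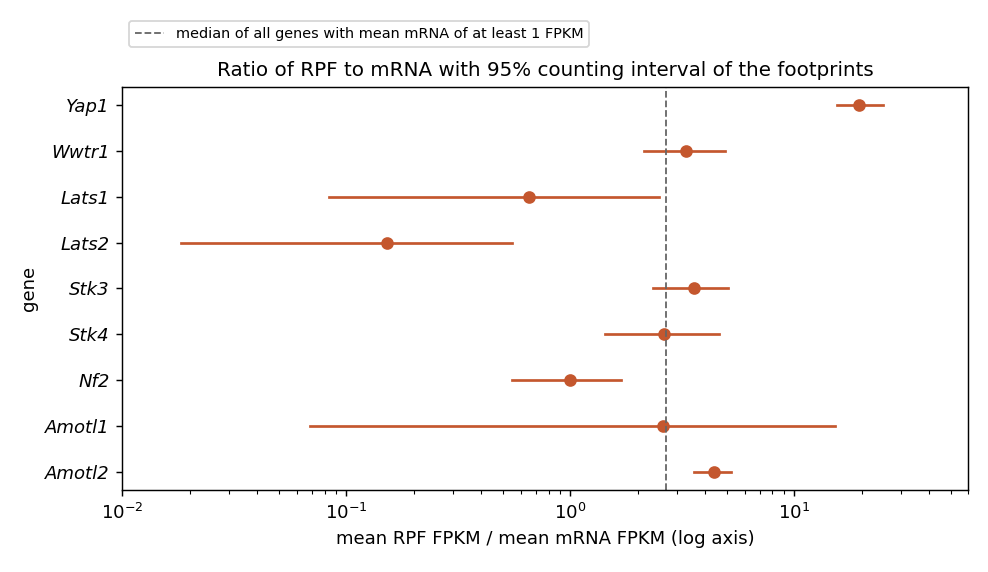
Mean RPF level divided by mean mRNA level (both in FPKM, log axis) for the 9 Hippo genes with at least 1 footprint. Points are the ratios, bars are 95% intervals from the footprint counts, and the dashed line is the median of 2.67 over genes with a mean mRNA of at least 1 FPKM. The intervals of Yap1 and Amotl2 lie to the right of the line, and that of Nf2 lies to the left. Those of Lats1 and Lats2 also lie to the left but rest on 2 footprints each. The bars leave out the spread between mRNA replicates. Lats1 and Amotl1 averaged under 1 FPKM in mRNA, so they are not among the genes behind the line.

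Ribosomes start most readily at an ATG with a purine 3 bases before it and a G right after it, and the start contexts of the effectors and the Lats kinases are shown because they include the gene with the highest ratio of RPF to mRNA among the 10, Yap1, and a gene with 1 footprint in each library, Lats2. They come from the longest annotated coding sequence of each gene (GENCODE vM1 on NCBIM37, the assembly of mm9). Capitals mark the base at -3, the start codon, and the base at +4, where the A of ATG is +1.
Yap1: ggccgcaGccATGGagcccg
Wwtr1: ccaggagGtcATGCataatt
Lats1: agatgctTtcATGAagaggg
Lats2: tggactaAcaATGAggccaa
The start codon of Yap1 lies at chr9:8004388-8004390 on the minus strand, that of Wwtr1 at chr3:57379800-57379802 on the minus strand, that of Lats1 at chr10:7411265-7411267 on the plus strand, and that of Lats2 at chr14:58353051-58353053 on the minus strand. Yap1 carried both preferred bases, Wwtr1 and Lats2 carried the purine at -3 without the G at +4, and Lats1 carried neither. Over the 10 genes, 8 had a purine at -3, 4 had a G at +4, and 4 had both, which were Yap1, Nf2, Stk3 and Stk4. The ratios of RPF to mRNA of these 4 were 19.5, 0.998, 3.57 and 2.62 in that order. Among 19540 genes with a complete start, 84.0% had the purine, 49.4% had the G, and 41.3% had both. These are descriptions of the letters, and their part in the RPF levels was not tested.

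Upstream of LATS, the 2 kinases were present in both assays. Stk3, which encodes MST2, was at 7.04 and 5.50 FPKM in mRNA and at 15.9 and 28.8 FPKM in RPF, from 11 and 18 footprints. Stk4, which encodes MST1, was at 3.89 and 3.64 FPKM in mRNA and at 14.8 and 4.90 FPKM in RPF, from 10 and 3 footprints. In both genes, each RPF value lay above its mRNA values, although the Stk4 replicates differed 3.02-fold in RPF. Relative to the library medians, neither was called, with log2 differences of 0.13 (SE 0.419) for Stk3 and -0.48 (SE 0.561) for Stk4 (limma adjusted p = 0.833 and 0.562). Together the kinases had 10.9 and 9.14 FPKM in mRNA and 30.7 and 33.7 FPKM in RPF, so that their sum varied less between the Ribo-seq replicates than either gene. Sav1, the adaptor that joins them to LATS, was at 1.10 and 0.333 FPKM in mRNA, from 14 and 4 fragments. It was listed at 0 in both Ribo-seq libraries, where a count of 0 allowed up to 5.85 and 6.45 FPKM for its coding sequence of 1161 bases. Sav1 was thus not detectable in RPF at this depth.

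Nf2 encodes Merlin, a scaffold that brings LATS to the plasma membrane. Its mRNA was among the highest of the 10 genes, at 9.002 and 8.19 FPKM, and its RPF level was 14.3 and 2.86 FPKM, from about 12 and 2 footprints. The RPF replicates lay on either side of the mRNA values and differed 4.99-fold. The log2 difference of -1.82 (SE 0.679) did not pass (limma adjusted p = 0.118). Without replicate 1 of Ribo-seq, which held the higher value, Nf2 was called lower at -2.77 (adjusted p = 1.2e-04) and Stk4 at -1.15 (adjusted p = 0.0420), and in that fit the lone Ribo-seq library is assumed to vary like the RNA-seq libraries.

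The angiomotin-like proteins bind YAP1 and WWTR1 and tie the pathway to cell junctions and polarity. Amotl2 had the highest mean mRNA level of the 10 genes, at 8.91 and 13.6 FPKM, and reached 35.3 and 63.2 FPKM in RPF, from about 42 and 68 footprints. Its log2 difference of 0.50 (SE 0.411) was not called (limma adjusted p = 0.411), and its ratio of 4.37 exceeded that of 71.6% of genes. Amotl1 was close to absent from both assays, with 0.0423 and 0.223 FPKM in mRNA and 0.691 and 0 FPKM in RPF, from 1 and 0 footprints. Amot, the angiomotin itself, was at 2.79 and 1.44 FPKM in mRNA and at 5.54 and 1.296 FPKM in RPF. Amotl2 was therefore the angiomotin gene with the highest level in each of the 4 libraries.

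Within the mRNA, Amotl2 and Nf2 led and overlapped between replicates. Wwtr1, Stk3, Lats2 and Stk4 followed, each overlapping its neighbour, and Yap1 came next, below both values of Stk4 though partly overlapping Lats2. Lats1 and Sav1 overlapped below it, and Amotl1 was the lowest. Within RPF, the order began with Yap1 and Amotl2, which overlapped, followed by Stk3 and Wwtr1, and then by Stk4 and Nf2, each pair overlapping. Lats2, Lats1, Amotl1 and Sav1 closed the order and could not be told apart. Yap1 thus held place 7 of 10 by mean mRNA level and place 1 by mean RPF level. For the 10 genes, the median gap between replicates was 0.42 in mRNA and 0.79 in RPF on the log2 scale, against 0.28 and 0.55 over all genes that averaged 1 FPKM or more.

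Paralogues were also compared within each library. The pseudocount of 1 weighs on this ratio where a gene is low. The log2 ratio of Yap1 to Wwtr1, on FPKM+1, was -1.19 and -0.73 in the RNA-seq libraries and 1.54 and 1.13 in the Ribo-seq libraries. Wwtr1 was therefore the higher of the pair in both mRNA libraries and Yap1 in both RPF libraries, a mean difference of 2.29 between the assays. The ratio of Amotl1 to Amotl2 was -3.25 and -3.58 in mRNA and -4.42 and -6.01 in RPF, lower in RPF by 1.80 on average, although 1 and 0 Amotl1 footprints set its RPF values. With a pseudocount of 0.1, its means were -5.70 in mRNA and -7.40 in RPF, and the exact p rose to 0.667. The ratio of Lats1 to Lats2 overlapped between the assays, at -2.28 and -0.71 in mRNA and 0.41 and -0.77 in RPF. That of Stk3 to Stk4, at 0.72 and 0.49 against 0.10 and 2.34, overlapped too. With 2 libraries against 2, the exact two-sided permutation test cannot give a p below 0.333, which was the value for the Yap1 and Amotl1 pairs with a pseudocount of 1, and the adjusted p over 4 pairs was 0.667 for both. For the Lats and Stk pairs the exact p was 0.667 and 1.

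**Figure D3:**
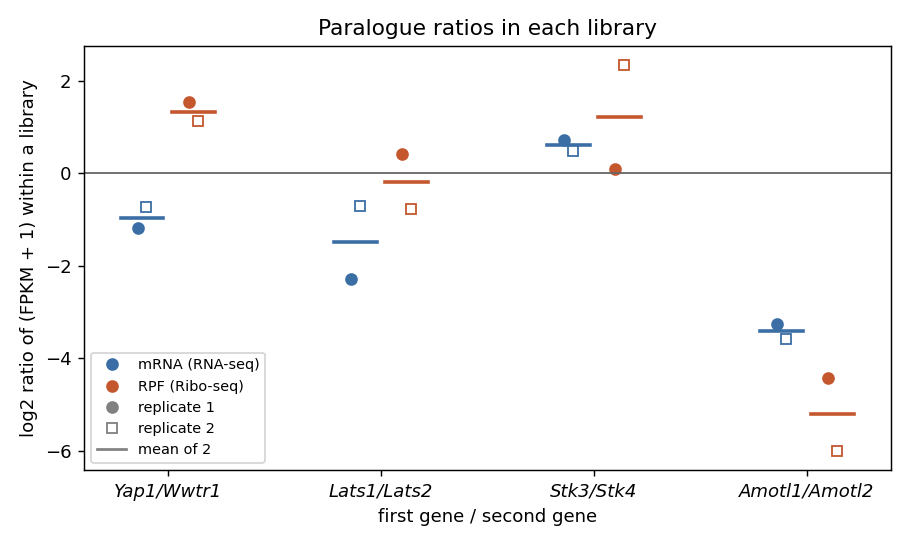
Log2 ratio of (FPKM + 1) between 2 paralogues in each library, with mRNA in blue and RPF in orange, replicate 1 as filled circles, replicate 2 as open squares, and bars for the mean of 2. Above 0 the first gene is the higher. The Yap1/Wwtr1 ratio is below 0 in both mRNA libraries and above 0 in both RPF libraries, whereas the Lats1/Lats2 and Stk3/Stk4 ratios overlap between the assays.

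The genes whose pattern was most like Yap1 over the 4 libraries, by Euclidean distance in log2(FPKM+1), were Lin28a at a distance of 0.257, Cebpa at 0.278 and Akt1s1 at 0.425. Lin28a, an RNA-binding protein, was at 2.02 and 3.73 FPKM in mRNA and at 57.0 and 43.5 FPKM in RPF. The genes most like Lats2 were Plec at 0.722, Atmin at 0.850 and Tep1 at 0.869, so that its closest neighbours were farther away than those of Yap1. Plec, which encodes the cytoskeletal linker plectin, was at 3.30 and 3.01 FPKM in mRNA and at 0.695 and 0.794 FPKM in RPF.

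A further 44 genes of the pathway were followed by role, and 36 of these were tested. Of the 36, 5 were called higher in RPF and 2 lower, beside the 10.3% and 8.60% of all genes tested, and their median log2 difference was -0.08, against -0.24 over all genes tested. Among 8 kinase partners, Mob1a, a coactivator of LATS, was at 125 and 124 FPKM in mRNA and at 83.6 and 55.3 FPKM in RPF. It was the most abundant kinase partner in both RNA-seq libraries, whereas Stk38 was above it in replicate 2 of Ribo-seq. Mob1a was called lower, at -2.36 (SE 0.241, adjusted p = 0.00368). Its paralogue Mob1b was at 3.65 and 3.002 FPKM in mRNA and at 25.1 and 36.8 FPKM in RPF, and its difference of 1.36 (SE 0.369) did not pass (limma adjusted p = 0.0563). Stk38, a kinase related to LATS that MOB1 also activates, was at 13.4 and 12.1 FPKM in mRNA and at 54.7 and 65.5 FPKM in RPF.

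The scaffolds and regulators had no call among 10 tested with limma and 0 with an unadjusted p under 0.05, beside 3113 of all 8327 genes tested. Still, 2 of the 10, Wwc1 and Amot, had log2 differences of -2.09 (SE 0.885) and -1.15 (SE 0.727, limma adjusted p = 0.153 and 0.299). Rassf1 had the highest RPF level of this list, at 42.9 and 60.8 FPKM. Retention and turnover covered the 14-3-3 proteins, which hold phosphorylated YAP1 in the cytoplasm, and the F-box proteins that mark it for degradation. All 9 were tested. The 14-3-3 genes Ywhab, Ywhae and Ywhag were called higher, by 1.31 (SE 0.165), 1.17 (SE 0.158) and 1.60 (SE 0.290), with adjusted p = 0.00698, 0.00839 and 0.0194 in limma. With quantile normalization, the difference of Ywhae was 0.75 and it was not called. Ywhaz and Ywhae had the highest RPF levels of the list, at 1581 and 1317 FPKM and at 1348 and 1565 FPKM. In Ywhaz, 89.9% of the 28-base windows occurred at more than 1 place in the genome, so its value is uncertain, whereas 0% did in Ywhab and Ywhae. The F-box gene Fbxw11 was at 24.1 and 21.8 FPKM in mRNA and at 16.9 and 7.78 FPKM in RPF and was called lower, at -2.43 (SE 0.402, adjusted p = 0.0148). The calls of Fbxw11 and Ywhag were lost without either RNA-seq replicate.

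**Figure D4:**
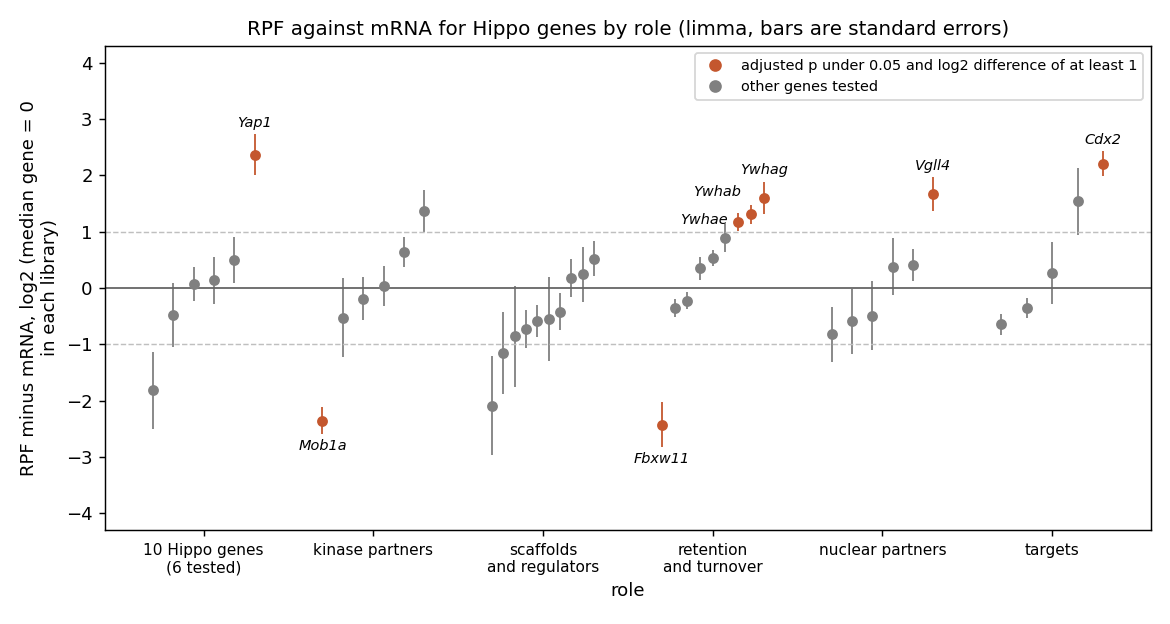
RPF minus mRNA on the log2 scale, relative to the median gene of each library, for the 6 Hippo genes tested and the 36 other pathway genes tested, by role. Bars are standard errors of the limma fit, dashed lines mark a log2 difference of 1 either way, and orange points were called. Yap1, Cdx2, Vgll4, Ywhag, Ywhab and Ywhae lie above the upper line, and Mob1a and Fbxw11 below the lower one.

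The nuclear partners were all tested. Tead4, the TEAD factor that the trophectoderm needs, had the highest level of the 4 TEAD genes in each library, at 12.4 and 17.7 FPKM in mRNA and at 60.9 and 56.3 FPKM in RPF. Tead1 was at 3.92 and 2.94 FPKM in mRNA and at 23.8 and 9.55 FPKM in RPF. Vgll4, which competes with YAP1 for TEAD binding, was at 3.47 and 4.17 FPKM in mRNA and at 46.5 and 38.5 FPKM in RPF, and was called higher, at 1.67 (SE 0.3001, adjusted p = 0.0189). Both of its RPF values lay above both mRNA values, although the median gene was also higher in RPF than in mRNA. The call of Vgll4 was lost without either RNA-seq replicate.

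Of the 8 targets, 5 were tested and 1 was called. Cdx2, the trophectoderm regulator, was at 21.6 and 21.0 FPKM in mRNA and at 264 and 319 FPKM in RPF, and was called higher at 2.205 (SE 0.220, adjusted p = 0.00346). Gata3 was at 127 and 112 FPKM in mRNA and at 286 and 244 FPKM in RPF and had a log2 difference of -0.36 (SE 0.176, adjusted p = 0.1998). Among targets known from cultured cells, Ccn2 was at 2.41 and 0.702 FPKM in mRNA and at 28.8 and 12.2 FPKM in RPF, and Ccn1 was at 2.90 and 4.64 FPKM in mRNA and at 24.9 and 8.80 FPKM in RPF. Ankrd1 and Axl were listed at 0 in all 4 libraries. Birc5 was the most abundant of the 8, at 370 and 420 FPKM in mRNA and at 850 and 601 FPKM in RPF. Relative to the library medians, the log2 difference was 1.54 (SE 0.593) for Ccn2, 0.26 (SE 0.555) for Ccn1 and -0.64 (SE 0.188) for Birc5. None of them was called (limma adjusted p = 0.127, 0.748 and 0.0674). Sox2, which is expressed in the inner cells where YAP1 is out of the nucleus, was at 0.889 and 0.682 FPKM in mRNA and at 37.1 and 35.4 FPKM in RPF, and its low mRNA level kept it out of the test.

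Several pathway genes are known targets of YAP1 and TEAD themselves, and the stretches of promoter that hold the TEAD core motif are shown for this reason. The motif GGAATG was searched on both strands, as GGAATG or CATTCC, in RefSeq promoters of GRCm38.p6 that ran from 250 bases before to 50 after the start of transcription. Of the 10 genes, 9 matched a promoter, and 5 of the 9 held the motif in at least 1. These were Yap1, Wwtr1, Lats2, Amotl2 and Sav1. Of 27025 genes with a promoter, 16.6% held it. Among the targets searched, Ccn1, Ankrd1 and Axl held the motif, whereas Birc5, Cdx2, Gata3 and Sox2 did not. Each stretch below is read along its gene, with the motif in capitals, and that of the target Ccn1 is given for comparison.
Yap1: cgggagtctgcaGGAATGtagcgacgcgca
Wwtr1: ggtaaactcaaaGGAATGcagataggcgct
Lats2: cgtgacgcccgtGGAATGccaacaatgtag
Amotl2: ctgaaactctcaCATTCCtggcatagcagc
Sav1: cggctttcccagCATTCCcagcggcgcggg
Ccn1: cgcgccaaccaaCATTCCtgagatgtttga
On GRCm38.p6, they lie at chr9:8004720-8004749 on the minus strand for Yap1, chr3:57576029-57576058 on the minus strand for Wwtr1, chr14:57746102-57746131 on the minus strand for Lats2, chr9:102717727-102717756 on the plus strand for Amotl2, chr12:69987091-69987120 on the minus strand for Sav1, and chr3:145650071-145650100 on the minus strand for Ccn1. The motif began 141 bases before the start in Yap1 and 65 before it in Amotl2. No match was found in the promoters of Lats1, Nf2, Stk4 or Amotl1, which says only that these letters are not in this window. The 5 genes with the motif took both high and low places in the mRNA order, from Amotl2 in place 1 to Sav1 in place 9.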

How the data were processed

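The authors trimmed the reads, removed rRNA reads from Ribo-seq, and mapped to mm9, and their notes name Trim Galore 0.4.2, cutadapt 1.14, Bowtie2 2.2.2, STAR 2.5.3a and Cufflinks 2.2.1. RNA-seq libraries were made with Smart-seq2, which primes on poly(A) tails. The deposited values are FPKM for each library, with Cufflinks run over transcripts in the former assay and over coding sequences alone in the latter. A repeated symbol took its highest FPKM (345 symbols, 0 of the Hippo genes). The difference was fitted with limma 3.58.1 in R 4.3.3 on log2(FPKM+1), which understates changes of low genes. On simulated data it recovered 98.5% of 200 genes changed by 3 on the log2 scale among 8327, with 6 false calls. That change was larger than the difference of any Hippo gene in the main fit. The simulation used the same spread in both assays, whereas the real replicate gap was larger in RPF. It does not say how many smaller differences would be missed. The labels do not say that the replicates are separate batches of embryos, so p-values measure the spread between these libraries. Implied fragments were read from the FPKM steps with the default fragment lengths of Cufflinks (mean 200, SD 80 bases). Of the low values tested, 68.2% and 66.4% in RNA-seq and 87.9% and 86.8% in Ribo-seq lay within 0.1 of a whole fragment, where chance gives 20%. Intervals are exact Poisson intervals at 95%, and a floor is 3 fragments. Python 3.11.15, pandas 2.3.3, numpy 2.4.6, scipy 1.17.1, numba 0.67.0 and matplotlib 3.10.9 did the rest. The members and lists were chosen with earlier results of these data known. Text names all 10 members, and of the other pathway genes those called, the 2 with the highest RPF level of a role, and any target or nuclear partner. Amot, Mob1b and Wwc1 were named after their values were seen. 1 gene that this rule names is not reported here.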

Additional observations from a re-analysis of the deposited data

Results flagged for a closer look

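The order of the paralogues Yap1 and Wwtr1 differed between the assays. Wwtr1 was the higher in both RNA-seq libraries and Yap1 in both Ribo-seq libraries, and the mean log2 ratio was higher in RPF by 2.29. The exact permutation test of this difference could not pass 0.05 with 2 libraries for each assay.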

How the results depend on the processing

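Yap1 was called higher in RPF under each alternative that tested it other than leaving out replicate 1 of RNA-seq. With a filter of 10 FPKM, Yap1 was not tested and 0 of the 1 member tested was called. Of 3617 genes tested, 472 were called higher and 646 lower. With no filter, 1353 of 13402 genes tested were called higher and 3165 lower. Of the 10 members, 1 was called higher and 3 lower (Lats2, Amotl1 and Sav1, with 0 to 1 footprints in each library). Of 42 other pathway genes tested, 8 were called higher and 4 lower. Without centring, 4144 of 8327 genes tested were called higher and 66 lower. Of the 6 members tested, 4 were called higher (Yap1, Amotl2, Stk3 and Wwtr1) and 0 lower. Of 36 other pathway genes, 23 were called higher and 0 lower, and Stk4 turned to 1.021. Mob1a and Fbxw11 were then not called. Without a variance trend, 554 of 8327 genes tested were called higher and 442 lower, with 3 of 36 other pathway genes higher (Ywhae and Ywhag were lost). Quantile normalization lost Ywhae, and it called Mob1b higher at 1.49 and Birc5 lower at -1.03 (limma adjusted p = 0.0385 and 0.0129). Mob1b was also called higher with a pseudocount of 0.1, with no filter and without centring. Filtering on mRNA alone, chosen after the data were seen, let in Lats2 through the assay where it is high. It called 1 of 7 members lower, this gene, beside 1065 of 8746 genes tested, which supports nothing. With a pseudocount of 0.1, the ratio of Lats1 to Lats2 in RPF moved from -0.18 to -1.11. Centring within 20 bins of GC content, chosen after the data were seen, turned Wwtr1 to -0.10. Leaving out each library in turn, 428 to 1334 genes were called higher and 140 to 1962 lower, with 0 to 1 members higher, 0 to 2 members lower, 3 to 8 other pathway genes higher and 1 to 6 lower. The difference of Stk3 then ranged from -0.32 to 0.58 and that of Stk4 from -1.15 to 0.19. The difference in the Stk3 to Stk4 ratio ranged from -0.51 to 1.73. The replicate numbers pair no embryos in the labels (correlation of deviations 0.00994). With the replicate block, 769 of 8327 genes tested were called higher and 618 lower, with 1 of 6 members higher and 0 lower. The cause of these changes was not tested. Ribo-seq depth limits Lats1, Lats2, Amotl1 and Sav1 most.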
